A study of Mus musculus with 18 samples.

Results

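Endotoxin-tolerant mouse macrophages kept with glutamine were set against macrophages given bacterial lipopolysaccharide (LPS) for 6 h, with untreated macrophages as the baseline. These were 8 of the 18 RNA sequencing libraries of the series: 4 libraries of tolerant cells with glutamine (ET), 2 libraries of cells stimulated with LPS for 6 h and 2 untreated (CTRL) libraries. All cells were wild-type C57BL6/J bone marrow-derived macrophages, differentiated in medium conditioned by L929 cells, a fibroblast line that secretes the growth factor M-CSF. The genes described are those that LPS induced over untreated cells. Of 12506 genes tested, 6536 passed the test of LPS against untreated cells (52.3%; edgeR quasi-likelihood test, Benjamini-Hochberg adjusted p under 0.05), and 678 of them (5.42% of those tested) were higher by at least 2 log2 units, that is 4-fold. Levels in all 8 libraries were available for 676 of the 678. At the edge of that threshold stood Oas1h (2.003) and Ift57 (2.003) just inside, and Tank (1.998) and Bend6 (1.997) just outside.

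The tolerant libraries and the LPS and untreated libraries were counted in separate tables of separate experiments, so tolerance and experiment cannot be told apart. The labels used here do not give the LPS dose, how tolerance was induced, or whether tolerant cells received LPS again before RNA was taken. Nor do they tell whether the replicates were different mice or different cultures, and the spread between replicates may be technical. With 4 against 2 libraries an exact two-sided permutation test could not go below p = 0.133, and no p-value is given for tolerant against LPS-treated cells. Each comparison across the tables therefore rests on ranks. Genes were ranked within each library, each rank was given the mean log2 CPM (counts scaled to a library total of 1e6) of the 8 libraries at that rank, and the resulting values are called rank-matched levels. A gene was classed as lower in tolerant cells when all 4 tolerant libraries lay below both LPS libraries and the means differed by at least 2 log2 units, and as higher by the same rule in the opposite direction. The retained share places the tolerant level between the untreated level (0%) and the LPS level (100%) on the rank-matched log2 scale.

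LPS, a component of the outer membrane of Gram-negative bacteria, is handed by CD14 to the receptor complex of TLR4 and MD-2. The adaptor MyD88 then leads to NF-kappaB and AP-1 and to early cytokine genes, while the adaptor TRIF leads to IRF3, interferon beta and, through the interferon receptor, to the interferon-stimulated genes. Macrophages that have met LPS before are known to respond to it again with less TNF and IL-6, a state called endotoxin tolerance, while other genes remain inducible.

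Library totals were 32.4 to 37.6 M counts in tolerant cells, 36.3 and 34.8 M after LPS and 37.4 and 39.1 M in untreated cells. The scaling factors of the trimmed mean of M-values method (TMM) were 1.04 to 1.13 in tolerant libraries, 0.774 and 0.806 after LPS and 1.09 and 1.07 in untreated libraries. A gene with the same CPM therefore takes a higher rank in the LPS libraries than elsewhere. All 11 macrophage markers were detected in every library. Their summed level was 35797 to 42430 CPM in tolerant cells, 30540 and 30157 CPM after LPS and 43723 and 38417 CPM in untreated cells. Summed neutrophil markers reached at most 5.74 CPM in tolerant, 13.3 CPM in LPS-treated and 3.48 CPM in untreated cells, and the 3 erythroid markers were at 0 in all 8 libraries. Summed dendritic cell markers were 0.989 to 1.702 CPM in tolerant cells, 4.18 and 3.90 CPM after LPS and 1.04 and 1.10 CPM in untreated cells, with Xcr1 as most of the level after LPS. Stromal fibroblast and endothelial markers differed between tolerant replicates, and their values are given with the replicates. In bulk RNA, fewer cells expressing a gene and less RNA per cell cannot be told apart.

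Most of the LPS-induced programme stood far below its acute level in tolerant cells. Of the 676 genes, 404 were classed as lower (59.8%, against 4.81% of all 12373 genes compared), 1 as higher (0.148%, against 3.1%) and 271 as neither. All 4 tolerant libraries lay below both LPS libraries for 622 genes (92.0%, against 34.2% of all genes). The median difference was -2.34 log2 units (quartiles -3.41 and -1.51), against 0.00 over all genes compared. Rank-matched levels of the 676 genes had a median SD of 0.46 log2 units among the 4 tolerant libraries, 0.16 among the 2 LPS libraries and 0.26 among the 2 untreated libraries. Among 4748 genes that LPS had left within 0.5 log2 units of untreated cells, and which did not pass the test, 0.758% were lower and 1.05% higher in tolerant cells by the same rule. The 14 reference genes of metabolism, cytoskeleton and ribosome included no large difference, with values of -1.89 to 1.54 log2 units for tolerant minus LPS-treated cells.

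**Figure D1:**
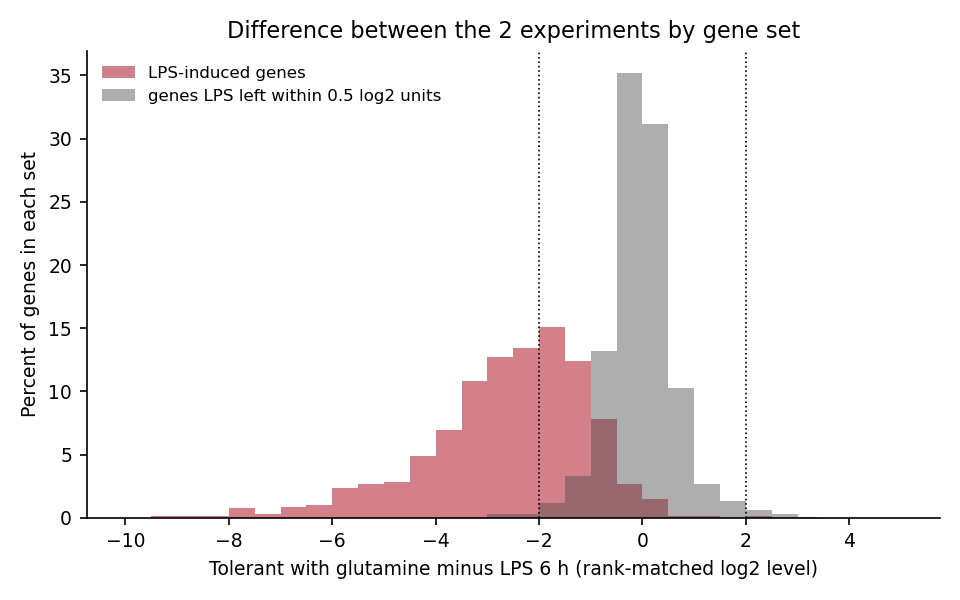
Histogram of the rank-matched difference, tolerant with glutamine minus LPS 6 h in log2 units (x axis, bins of 0.5), as the percent of genes (y axis) among the 676 LPS-induced genes and among the 4748 genes that LPS left within 0.5 log2 units. Dotted lines mark -2 and 2; the LPS-induced genes lie mostly to the left, with a median of -2.34, and the other genes centre near 0.

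Because the same 2 LPS libraries chose the genes and served in the comparison, the choice was also made with 1 replicate and the comparison with the other. Genes chosen with replicate 1 of LPS and CTRL and compared with LPS replicate 2 gave 401 of 676 lower (59.3%), and the opposite assignment gave 416 of 637 (65.3%). Here genes were chosen by a rank-matched difference of at least 2 log2 units with no test, and lower asked for separation from 1 LPS library only. The counts were close to the main count but come from this looser rule. Levels were matched over all 8 libraries and replicates may be technical, so the split cannot fully remove the effect of the choice.

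Set against untreated cells, 407 of the 676 genes (60.2%) had a tolerant level within 1 log2 unit of the untreated level, a smaller share than the 87.3% of all genes compared and the 91.7% of those that LPS left within 0.5 log2 units. Of the 676, 79 (11.7%, against 1.76% of all genes and 1.75% of those that LPS left within 0.5 log2 units) were higher than in untreated cells by at least 2 log2 units with no overlap. The median was 0.60 log2 units above untreated cells, and the median retained share was 20.6%. Of the 404 lower genes, 286 lay within 1 log2 unit of untreated cells, 19 were at least 2 units above them, and 38 lay more than 1 unit below them. These 38 were also all such genes among the 676 (5.62%), against 6.17% of all genes compared and 2.61% of those that LPS left within 0.5 log2 units. The share was thus near that of all genes and above that of the genes LPS left unchanged. The retained share was 0% or less for 188 genes, above 0 and up to 25% for 189, up to 50% for 168, up to 75% for 91, up to 100% for 27 and over 100% for 13.

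The share of lower genes was larger among genes that LPS induced more. It was 40.5% of 331 genes induced by 2 to 3 log2 units, 68.0% of 153 genes induced by 3 to 4, 83.5% of 127 genes induced by 4 to 6 and 92.3% of 65 genes induced by 6 or more. A gene induced 4-fold can be classed as lower only when its tolerant level is near the untreated one, so the rule itself favours strongly induced genes. The median retained share has no such limit, but it is divided by the LPS induction in the same libraries that set the 4 classes. It was 20.3, 24.5, 21.7 and 14.7% in these classes, taken in the same order. The shares of lower genes given below for gene lists were not adjusted for the strength of LPS induction. Among the lists, median LPS induction on ranks ran from 1.999 log2 units (TLR pathway) to 5.16 (antimicrobial effectors and pattern receptors). It was 2.91 for all LPS-induced genes. At the threshold, Fam102b (-2.04), Oaf (-2.03) and Plpp1 (-2.01) were just inside the lower class, and Piwil2 (-1.996), Mid1 (-1.97) and Cd38 (-1.97) just outside it.

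**Figure D2:**
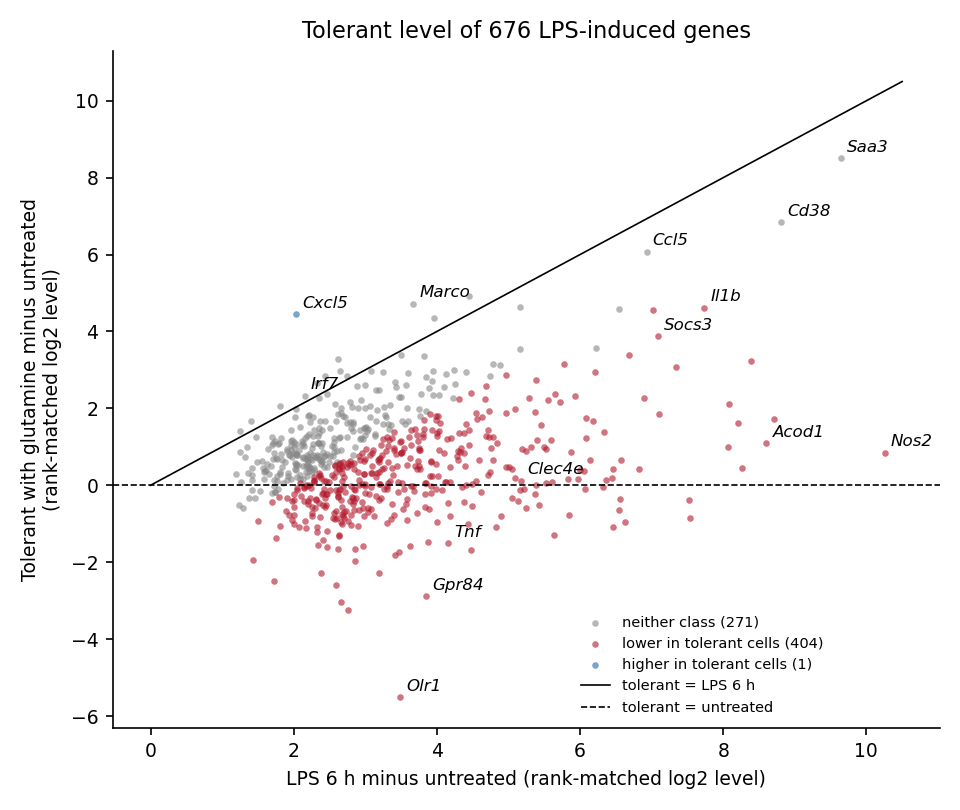
Each of the 676 LPS-induced genes by its rank-matched level, LPS 6 h minus untreated (x axis, log2 units) and tolerant with glutamine minus untreated (y axis, log2 units), coloured by class. Genes on the solid line would be at the LPS level in tolerant cells and genes on the dashed line at the untreated level; Nos2, Acod1 and Clec4e lie near the dashed line, Saa3, Ccl5 and Cd38 nearer the solid one, Marco and Cxcl5 above it.

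The metabolic enzymes and carriers included Nos2, the gene with the most negative difference. Of 18 LPS-induced members, 16 were lower (88.9%, against 59.8% of all LPS-induced genes) and 2 neither. Their median LPS induction on ranks was 3.96 log2 units, against 2.91 for all LPS-induced genes. The median difference was -3.05 log2 units and the median retained share 6.27%. Nos2, the inducible nitric oxide synthase (chr11:78920787-78960254, mm10, plus strand), had 0.649, 0.989, 0.339 and 0.505 CPM in tolerant cells, 528 and 264 CPM after LPS and 0.321 and 0.154 CPM in untreated cells. Its difference from LPS, -9.40 log2 units, was the most negative of the 676 genes, with SDs of 0.84 among the 4 tolerant and 0.62 among the 2 LPS libraries. With rank 1 as the highest of 12872 genes, Nos2 took ranks 10985 to 12236 in tolerant libraries and ranks 322 and 715 after LPS. The tolerant libraries were far below both LPS libraries and near the untreated ones.

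Acod1, which makes itaconate from an intermediate of the citric acid cycle, had 28.01, 36.4, 60.0 and 56.6 CPM in tolerant cells. LPS-treated cells had 5789 and 5349 CPM and untreated cells 24.1 and 18.7 CPM, a difference of -7.50 log2 units between tolerant and LPS-treated cells. Acod1 was among the 6 most abundant transcripts by count in both LPS libraries, and took ranks 3493 to 5575 in tolerant ones. Ptges, the inducible terminal synthase of prostaglandin E2, had 4.54, 4.76, 11.1 and 10.7 CPM in tolerant cells, against 1804 and 1359.9 CPM after LPS and 5.54 and 4.53 CPM in untreated cells. Its groups were 7.82 log2 units apart, and a gene of unknown product on its own strand overlaps it. Ch25h, which hydroxylates cholesterol at carbon 25, had 0.741, 0.8289, 0.819 and 0.691 CPM in tolerant cells, 86.8 and 55.5 CPM after LPS and 0.856 and 0.717 CPM in untreated cells. All 4 tolerant libraries were at about the untreated level of this gene.

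Other genes among the 10 most negative differences included enzymes and lipid-handling proteins. Olr1, the scavenger receptor for oxidised low-density lipoprotein also called LOX-1, had 0.0309, 0.0535, 0.480 and 0.824 CPM in tolerant cells, 91.1 and 103 CPM after LPS and 8.05 and 13.5 CPM in untreated cells. It lay 8.99 log2 units below the LPS level and 5.51 units below the untreated level, so that no tolerant library came near either group. Lipg, endothelial lipase, had 1.17, 1.36, 0.254 and 0.239 CPM in tolerant cells, against 204 and 122 CPM after LPS and 1.10 and 0.614 CPM in untreated cells (-8.40). Hdc, histidine decarboxylase, which makes histamine, had 0.309, 0.241, 0.0565 and 0.0532 CPM in tolerant cells, against 29.5 and 17.9 CPM after LPS and 0.241 and 0.256 CPM in untreated cells (-7.59). Mir155hg, the host transcript of a microRNA induced by TLR signals, had 0.0618, 0.214, 0.113 and 0.319 CPM in tolerant cells, 18.2 and 16.99 CPM after LPS and 0.134 and 0.256 CPM in untreated cells (-7.18). Shisa3 had 0.401, 0.187, 0.113 and 0.266 CPM in tolerant cells, against 26.5 and 18.03 CPM after LPS and 0.0535 and 0.0256 CPM in untreated cells (-7.06). In each of these genes both LPS libraries were above all others. Arg1, the arginase known as a marker of alternative activation and here also induced by LPS, had 0.926, 1.82, 3.45 and 2.95 CPM in tolerant cells, against 32.8 and 26.6 CPM after LPS and 3.42 and 2.61 CPM in untreated cells (-4.46).

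On ranks, inflammatory cytokines had the most negative median of the 11 lists, -4.11 log2 units, and a median retained share of 2.28%. With TMM their median was -3.70, and those of the inhibitors of TLR signalling (-3.84) and the metabolic list (-3.72) were more negative. The medians on ranks fall on Il12b and Csf3, which had few counts in tolerant cells. Of 15 LPS-induced members, 14 were lower (93.3%, against 59.8% of all LPS-induced genes). Median LPS induction of these members on ranks was 4.18 log2 units, against 2.91 for all LPS-induced genes. Tnf, the early cytokine by which tolerance is usually read, had 4.14, 3.53, 11.7 and 11.2 CPM in tolerant cells, 352 and 290.3 CPM after LPS and 19.3 and 17.5 CPM in untreated cells. Tolerant cells were 5.66 log2 units below LPS-treated cells and 1.504 units below untreated cells, with no overlap with either. Il6 had 0.185, 0.267, 0.509 and 0.452 CPM in tolerant cells, against 5.03 and 2.64 CPM after LPS and 0.0535 and 0 CPM in untreated cells (-4.33), and its level was low even after LPS. Il12b, the shared subunit of IL-12 and IL-23, had 0.124, 0.0802, 0 and 0.0266 CPM in tolerant cells, against 1.21 and 0.603 CPM after LPS and 0.0268 and 0.0512 CPM in untreated cells (-4.11). Il1a had 0.371, 0.508, 1.72 and 1.73 CPM in tolerant cells, 107 and 65.3 CPM after LPS and 0.134 and 0.179 CPM in untreated cells (-6.98).

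For 3 cytokines of low level the counts are given, with no difference of means. Il33 had no count in any tolerant or untreated library, against 104 and 68 counts after LPS. Il19 had 1 count in 1 tolerant library, 0 in the other 3 and in untreated cells, against 156 and 66 counts after LPS. Csf3, which encodes the granulocyte growth factor G-CSF, had 2, 0, 1 and 0 counts in tolerant cells, against 169 and 66 counts after LPS and 0 in untreated cells. All 3 were seen almost only in the LPS libraries.

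Il1b, which encodes the precursor of interleukin-1 beta, was lower than after LPS and yet far above untreated cells. It had 110.3, 191, 66.4 and 67.3 CPM in tolerant cells, 1283 and 833 CPM after LPS and 4.44 and 4.17 CPM in untreated cells. The tolerant level was 3.11 log2 units below the LPS level and 4.62 units above the untreated level, a retained share of 59.8%. The groups did not overlap in either direction, and an antisense gene overlaps Il1b. Edn1, the vessel-constricting peptide endothelin 1, was the other of the 2 members at least 2 log2 units above untreated cells, and is named after its values were seen. It had 0.926, 0.989, 4.18 and 4.31 CPM in tolerant cells, 9.30 and 5.34 CPM after LPS and 0.187 and 0.205 CPM in untreated cells, a retained share of 50.8%. Tnfsf15, a TNF family ligand also named after its values were seen, was the 1 member in neither class (-1.74). It had 1.39, 1.07, 0.226 and 0.479 CPM in tolerant cells, 0.990 and 1.005 CPM after LPS and 0.214 and 0.333 CPM in untreated cells, so the CPM of tolerant and LPS-treated cells overlapped. Il10, the anti-inflammatory cytokine, was just outside the induced set, with a log2 fold change of 1.99 ± 0.20 (standard error) for LPS over untreated cells. It had 15.2, 9.81, 5.62 and 5.88 CPM in tolerant cells, 30.2 and 21.3 CPM after LPS and 8.56 and 9.22 CPM in untreated cells.

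**Figure D3:**
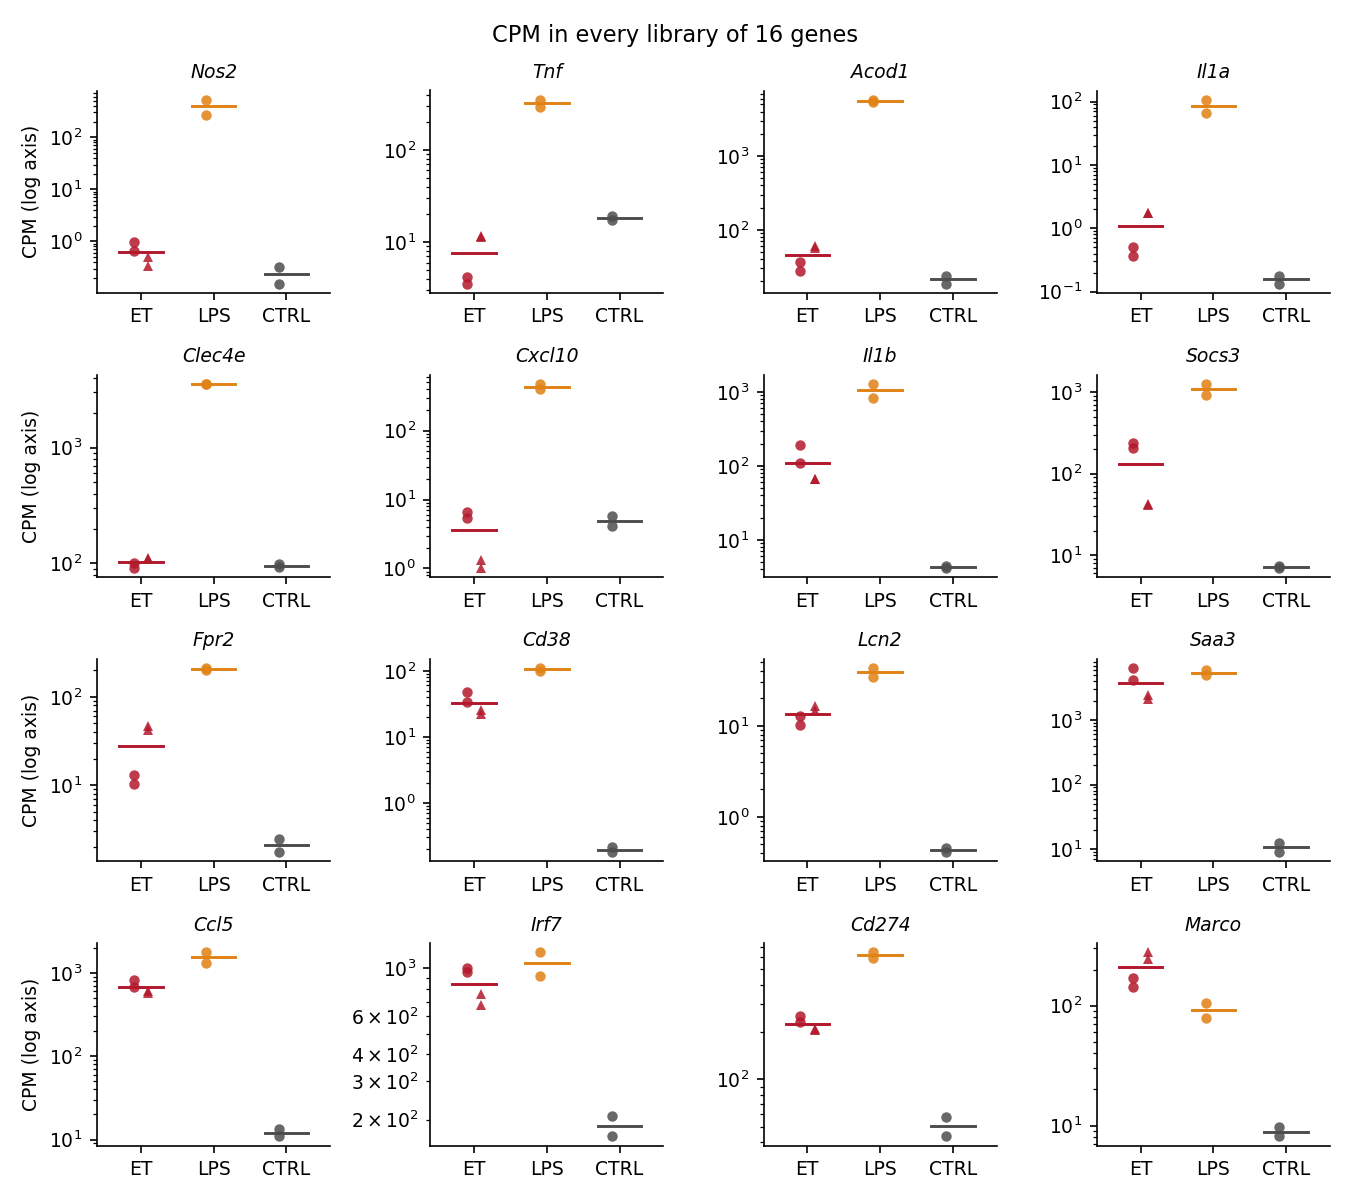
CPM on log axes (y) of 16 genes in every library of tolerant cells with glutamine (ET), cells given LPS for 6 h (LPS) and untreated cells (CTRL), with a line at each group's arithmetic mean. Circles are replicates 1 and 2, and triangles replicates 3 and 4 of tolerant cells. Nos2, Tnf and Acod1 are far below LPS in all 4 tolerant libraries, while Saa3, Ccl5 and Marco are far above untreated cells.

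The chemokines had 15 LPS-induced members. Of these, 10 were lower (66.7%, against 59.8% of all LPS-induced genes), 1 was higher and 4 were neither. In tolerant cells 6 of the 15 stood at least 2 log2 units above untreated cells, as did 11.7% of all LPS-induced genes. The median difference from LPS was -2.95. Cxcl10, an interferon-dependent ligand of CXCR3, had 6.49, 5.48, 1.02 and 1.33 CPM in tolerant cells, 473 and 396 CPM after LPS and 5.67 and 4.17 CPM in untreated cells (-7.54). Cxcl11, annotated in GENCODE vM21 as a polymorphic pseudogene, one that is intact in some mouse strains and disrupted in others, had 0.185, 0, 0.0283 and 0.0798 CPM in tolerant cells, against 18.7 and 14.2 CPM after LPS and 0.0535 and 0.0512 CPM in untreated cells (-7.91), and genes on the opposite strand overlap it. The tolerant level of both transcripts was near or below the untreated level. Cxcl3, a neutrophil attractant, had 2.29, 3.40, 11.0 and 9.57 CPM in tolerant cells, 91.0 and 73.3 CPM after LPS and 0.615 and 0.410 CPM in untreated cells, a retained share of 41.8%.

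Ccl5, which attracts T cells and monocytes, was nearer its LPS level than its untreated level in tolerant cells. It had 683, 829.1, 608 and 568 CPM in tolerant cells, against 1756 and 1312 CPM after LPS and 13.4 and 10.9 CPM in untreated cells. The tolerant libraries were all below both LPS libraries, by 0.85 log2 units on average on ranks (difference of -1.65 with TMM). They were 6.08 units above untreated cells, a retained share of 87.7%. Ccl7, a monocyte attractant, had 25.8, 19.5, 12.2 and 12.3 CPM in tolerant cells, 56.5 and 40.2 CPM after LPS and 2.01 and 2.33 CPM in untreated cells, a retained share of 59.9%. Ccl12, another monocyte attractant, could not be placed, since tolerant replicates 1 and 2 had 18.005 and 15.8 CPM and replicates 3 and 4 had 0.396 and 0.558 CPM, against 12.0 and 9.21 CPM after LPS and 0.134 and 0.128 CPM in untreated cells. Cxcl5, a neutrophil attractant named here after its values were seen, was the gene classed as higher. It had 3.21, 3.80, 5.11 and 6.52 CPM in tolerant cells, 0.275 and 0.459 CPM after LPS and 0.107 and 0.102 CPM in untreated cells (2.43), all at low levels.

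Antimicrobial effectors and pattern receptors were the list with the highest median retained share, 56.5%. Of 14 LPS-induced members, 7 were lower on ranks (50%, against 59.8% of all LPS-induced genes) and 7 neither. With TMM 9 of the 14 were lower, against 432 of all 676, and with RLE 10, against 450. In tolerant cells 9 of the 14 stood at least 2 log2 units above untreated cells, as did 11.7% of all LPS-induced genes. Saa3, an acute-phase serum amyloid A protein (chr7:46711998-46715700, mm10, minus strand), had 4139, 6396, 2474 and 2109 CPM in tolerant cells, 5931 and 4946 CPM after LPS and 12.4 and 8.88 CPM in untreated cells. Tolerant replicate 2 was above both LPS libraries in CPM, yet on the rank scale all 4 lay below, by 1.13 log2 units on average, with a retained share of 88.2%. Saa3 took ranks 9 to 29 in tolerant libraries, ranks 5 and 6 after LPS and ranks 7691 and 8515 in untreated libraries.

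Marco, a scavenger receptor that binds bacteria, was above its LPS level in tolerant cells. It had 144, 171, 278 and 247 CPM in tolerant cells, 79.4 and 106 CPM after LPS and 9.66 and 8.12 CPM in untreated cells, and no tolerant library overlapped with either group. The difference from LPS was 1.05 log2 units on ranks and 0.69 with TMM scaling, both below the 2 units asked for. Lcn2, the iron-siderophore binder lipocalin 2, had 10.3, 12.7, 16.5 and 14.5 CPM in tolerant cells, 42.8 and 34.5 CPM after LPS and 0.455 and 0.410 CPM in untreated cells, a retained share of 70.1%. Slpi, an inhibitor of neutrophil proteases, had 5.44, 7.49, 9.44 and 8.96 CPM in tolerant cells, 6.41 and 5.68 CPM after LPS and 0.241 and 0.179 CPM in untreated cells. Its CPM was as high in tolerant as in LPS-treated cells, while its ranks were lower, so the 2 were close on either scale (-0.52 on ranks and -0.11 with TMM).

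Receptors for bacterial formyl peptides stood between their untreated and LPS levels. Fpr2 had 10.2, 12.99, 46.6 and 42.5 CPM in tolerant cells, 201 and 211 CPM after LPS and 1.74 and 2.46 CPM in untreated cells, a retained share of 50.9%, although reads may be shared with the overlapping Fpr3. Fpr1 had 7.13, 10.2, 37.1 and 32.2 CPM in tolerant cells, 143 and 152 CPM after LPS and 1.85 and 2.41 CPM in untreated cells, a retained share of 47.6%. Hp, haptoglobin, had 11.1, 18.9, 12.4 and 13.8 CPM in tolerant cells, 64.9 and 54.0 CPM after LPS and 0.401 and 0.538 CPM in untreated cells, a retained share of 64.9%. Clec4e, the receptor Mincle for mycobacterial cord factor, was unlike them. It had 91.4, 100.5, 111 and 108 CPM in tolerant cells, 3519 and 3546 CPM after LPS and 98.3 and 92.3 CPM in untreated cells, a retained share of 2.30%.

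Promoters of 6 genes were looked up by the naming rule, the first 3 of the lower and of the neither genes with a RefSeq entry (GRCm38.p6, 250 bases before to 50 after the start): Olr1, Ptges, Hdc, Cd38, Saa3 and Lcn2. Motifs searched on both strands were a kappaB site (GGG, any 2 bases, TTTCC), an interferon-stimulated response element (ISRE: GAAA, any 2 bases, GAAA), an AP-1 site (TGANTCA) and a TATA box (TATAAA). A match was found in Olr1, at -60 from the start (AP-1), and in Saa3, at -125 (ISRE). Both windows are shown with the match in capitals. Whether the matches bear on the level of either gene was not tested. The other 4 windows held none of these letters.
Olr1, chr6:129507116-129507415, minus strand: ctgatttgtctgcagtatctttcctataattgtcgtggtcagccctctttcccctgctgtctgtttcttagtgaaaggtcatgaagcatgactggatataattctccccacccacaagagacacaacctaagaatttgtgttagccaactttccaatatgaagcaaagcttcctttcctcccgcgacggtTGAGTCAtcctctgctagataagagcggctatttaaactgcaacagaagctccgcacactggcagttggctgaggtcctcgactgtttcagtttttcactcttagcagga
Saa3, chr7:46715627-46715926, minus strand: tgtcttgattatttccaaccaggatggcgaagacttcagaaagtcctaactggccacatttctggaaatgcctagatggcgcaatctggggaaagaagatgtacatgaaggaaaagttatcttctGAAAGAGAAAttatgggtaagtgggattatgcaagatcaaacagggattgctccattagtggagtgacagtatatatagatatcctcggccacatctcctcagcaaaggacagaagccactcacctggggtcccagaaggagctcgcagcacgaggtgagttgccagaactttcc

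Over all 32851 RefSeq promoter windows, 3.44% held the ISRE letters, 7.81% the AP-1 letters, 1.63% the kappaB letters and 13.6% the TATA letters. For the LPS-induced genes, 521 of 676 had windows, 665 in all. The ISRE letters were in 8.68% of 403 windows of lower genes and in 17.9% of 262 windows of genes in neither class. The AP-1 letters were in 13.4% and 9.54% of these windows, the kappaB letters in 3.97% and 4.96%, and the TATA letters in 15.4% and 8.40%. These are descriptions of letters in a short window, and genes with several starts are counted more than once.

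The interferon response, driven by interferon beta, had 31 LPS-induced members. Of these, 16 were lower (51.6%, against 59.8% of all LPS-induced genes) and 15 neither on ranks, with a median of -2.15 log2 units (all LPS-induced genes -2.34) and a median retained share of 40.1%, and 5 stood at least 2 units above untreated cells. With TMM scaling 20 of the 31 were lower, against 432 of all 676 LPS-induced genes. Ifi205, a member of the interferon-inducible p200 family, had 8.15, 7.06, 4.24 and 5.32 CPM in tolerant cells, 344 and 319 CPM after LPS and 1.18 and 1.02 CPM in untreated cells (-5.96). Ifit1, which binds viral RNA, had 182, 145, 112 and 111 CPM in tolerant cells, 1377 and 1346 CPM after LPS and 80.1 and 67.1 CPM in untreated cells, a retained share of 22.9%. Gbp2, an interferon-induced guanylate-binding protein, had 133, 116, 54.7 and 51.8 CPM in tolerant cells, 1225 and 1034 CPM after LPS and 26.0 and 20.8 CPM in untreated cells, a retained share of 35.3%. Gbp3 had a retained share of 40.1%. Gbp7 of the same family was in neither class, with 136, 129.7, 37.6 and 59.5 CPM in tolerant cells, 229.6 and 263 CPM after LPS and 7.52 and 12.2 CPM in untreated cells. Irf7, the transcription factor that amplifies interferon production, was named after its values were seen. It had 1006, 963, 760.1 and 678 CPM in tolerant cells, 1186 and 925 CPM after LPS and 207 and 167 CPM in untreated cells, and its sign depended on the scale (0.18 on ranks and -0.77 with TMM).

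Those inhibitors of TLR signalling that LPS induced were mostly far below their LPS level in tolerant cells. Of 12 LPS-induced members, 10 were lower (83.3%, against 59.8% of all LPS-induced genes) and 2 neither. Their median retained share was below the untreated level at -17.9%. Over all 23 members tested, the median difference was -1.22 log2 units from LPS-treated and -0.30 from untreated cells. Tnfaip3, the ubiquitin-editing enzyme A20, had 22.9, 23.4, 32.9 and 31.1 CPM in tolerant cells, 491 and 403 CPM after LPS and 66.7 and 67.3 CPM in untreated cells. Nfkbia, which encodes the NF-kappaB inhibitor IkappaB alpha, had 58.3, 67.0, 70.3 and 72.5 CPM in tolerant cells, 738 and 591 CPM after LPS and 135 and 115 CPM in untreated cells. Both were below untreated cells in all 4 tolerant libraries, by 1.32 and 0.92 log2 units. Dusp2, a phosphatase of MAP kinases, had 1.14, 1.26, 0.989 and 0.346 CPM in tolerant cells, 29.0 and 17.5 CPM after LPS and 2.51 and 1.59 CPM in untreated cells (-5.35).

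Irak3, the kinase-like inhibitor IRAK-M known from studies of tolerance, had 71.9, 82.7, 103 and 91.8 CPM in tolerant cells, 468 and 453 CPM after LPS and 57.1 and 55.8 CPM in untreated cells. It was 2.27 log2 units below its LPS level and 0.66 units above its untreated level. Socs1, an inhibitor of JAK kinases, had 1.79, 2.27, 2.49 and 1.86 CPM in tolerant cells, 30.2 and 20.1 CPM after LPS and 1.02 and 0.461 CPM in untreated cells (-4.22). Socs3, which limits IL-6 receptor signalling, had a larger retained share, 54.6%. Its CPM was 204, 236, 42.2 and 41.0 in tolerant cells, 1263 and 929 after LPS and 7.30 and 6.94 in untreated cells. Cd274, the checkpoint ligand PD-L1, was in neither class, with 231, 253, 209.5 and 205 CPM in tolerant cells, 593 and 642 CPM after LPS and 43.3 and 57.4 CPM in untreated cells, a retained share of 66.0%.

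**Figure D4:**
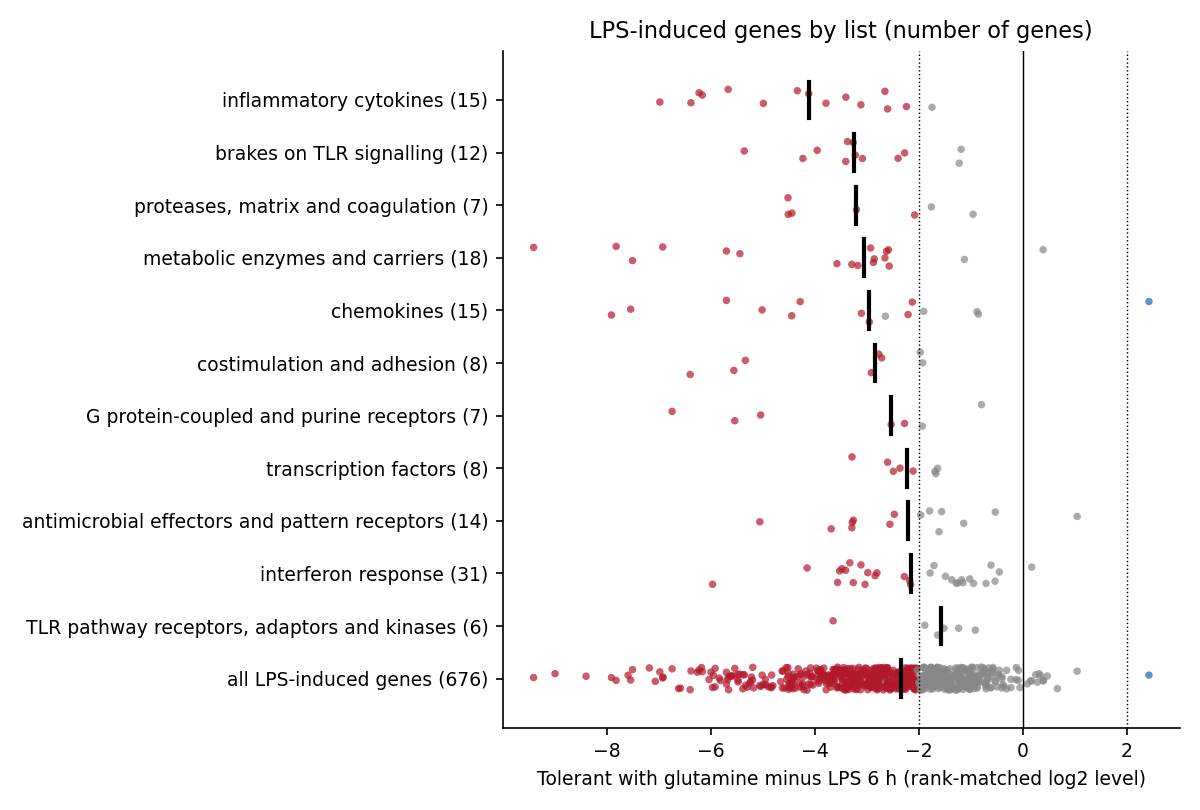
Rank-matched difference, tolerant with glutamine minus LPS 6 h in log2 units (x axis), for the LPS-induced members of 11 gene lists and for all 676 LPS-induced genes (rows, number of genes in parentheses), with a black bar at each median. Red points are lower, grey neither and blue higher; medians run from -4.11 for inflammatory cytokines to -1.57 for the TLR pathway.

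Receptors, adaptors and kinases of the TLR pathway were close to untreated cells. Only 6 of 22 members were LPS-induced. On ranks 1 of these was lower (16.7%, against 59.8% of all LPS-induced genes) and 5 neither, with 4 lower by TMM. The median was -1.57 log2 units and the median retained share 23.6% (all LPS-induced genes 20.6%). Median LPS induction on ranks, 1.999 log2 units, was the lowest of the lists (all LPS-induced genes 2.91). The rule favours strongly induced genes, and how far this set the share of 16.7% was not tested. Traf1, an adaptor of TNF receptors, was the lower one, with 29.1, 29.4, 15.97 and 14.6 CPM in tolerant cells, 286 and 224 CPM after LPS and 24.2 and 21.9 CPM in untreated cells. Myd88 had 174, 179, 99.6 and 93.6 CPM in tolerant cells, 358 and 307 CPM after LPS and 108 and 96.6 CPM in untreated cells. The receptor of LPS was not LPS-induced. Tlr4 had 333, 292, 156 and 239.9 CPM in tolerant cells, 72.2 and 110.0 CPM after LPS and 92.5 and 254 CPM in untreated cells, and its log2 fold change for LPS over untreated cells was -0.49 ± 0.55 (standard error; adjusted p = 0.493, edgeR). The spread between the 2 untreated libraries was as large as the gaps between groups. Cd14 had 428, 440.1, 435 and 455 CPM in tolerant cells, 1679 and 1365 CPM after LPS and 739 and 614 CPM in untreated cells, so all 4 tolerant libraries were below both other groups.

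Transcription factors had 8 LPS-induced members, 5 lower and 3 neither on ranks (7 lower with TMM). The share lower on ranks, 62.5%, was near the 59.8% of all LPS-induced genes. Their median was -2.23 log2 units (all LPS-induced genes -2.34), and none was at least 2 units above untreated cells. Nfkbiz, the nuclear IkappaB zeta that Il6 induction needs, had 53.6, 48.2, 46.5 and 44.5 CPM in tolerant cells, 214 and 187 CPM after LPS and 44.8 and 58.7 CPM in untreated cells. Batf2 had 10.9, 11.4, 6.19 and 5.48 CPM in tolerant cells, 36.5 and 29.9 CPM after LPS and 3.67 and 3.35 CPM in untreated cells, and Ets2 was lower likewise (-2.49). Cebpd had 34.4, 37.4, 39.8 and 21.3 CPM in tolerant cells, 98.0 and 79.1 CPM after LPS and 29.1 and 15.1 CPM in untreated cells, and was in neither class.

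Of 8 LPS-induced genes of costimulation and adhesion, 6 were lower (75%, against 59.8% of all LPS-induced genes). Their median was -2.84 log2 units (all LPS-induced genes -2.34). Cd40, the receptor for T cell help, had 12.1, 11.2, 3.53 and 3.40 CPM in tolerant cells, 295 and 211 CPM after LPS and 7.92 and 7.43 CPM in untreated cells (-5.55), and Cd69 (-5.33) and Slamf1 (-6.39) were lower as well. Cd38, an enzyme that consumes NAD, had the largest LPS induction of the genes in neither class, 9.49 ± 0.18 log2 units (standard error). It had 34.2, 48.2, 25.8 and 22.2 CPM in tolerant cells, 101 and 109.6 CPM after LPS and 0.214 and 0.179 CPM in untreated cells. All 4 tolerant libraries were below LPS and above untreated cells, with a retained share of 77.6%, and genes on both strands overlap Cd38. Its difference from LPS was -1.97 log2 units on ranks and -2.21 with TMM, which is past the 2 units asked for, so its class depended on the scale.

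G protein-coupled and purine receptors had 5 of 7 LPS-induced members lower (71.4%, against 59.8% of all LPS-induced genes). Their median was -2.53 log2 units (all LPS-induced genes -2.34), and none was at least 2 units above untreated cells. Gpr84, a receptor for medium-chain fatty acids, had 2.78, 3.13, 11.5 and 10.4 CPM in tolerant cells, 697 and 579 CPM after LPS and 48.9 and 32.1 CPM in untreated cells, so that tolerant cells were also 2.89 log2 units below untreated cells. The adenosine receptors Adora2a and Adora2b were 5.53 and 5.04 log2 units below the LPS level and within 1 unit of the untreated level. Among LPS-induced proteases, matrix and coagulation genes 5 of 7 were lower on ranks (71.4%, against 59.8% of all LPS-induced genes). With TMM 6 were lower. The median on ranks was -3.19. Mmp13, a collagenase, had 20.9, 18.2, 24.6 and 27.0 CPM in tolerant cells, 667 and 455 CPM after LPS and 11.1 and 12.3 CPM in untreated cells (-4.51). Mmp14, a membrane-bound metalloprotease, was in neither class on ranks (-1.75), and its difference was -2.59 with TMM. Its CPM was 209.8, 264, 240.0 and 217 in tolerant cells, 1078 and 960.4 after LPS and 35.2 and 24.9 in untreated cells. Gja1, the gap junction protein connexin 43, had 49.8, 59.0, 27.8 and 26.9 CPM in tolerant cells, 104 and 80.5 CPM after LPS and 4.52 and 6.20 CPM in untreated cells, a retained share of 66.8%.

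The 4 tolerant libraries were not alike. Replicates 1 and 2 had a Spearman rank correlation of 0.998 across genes and replicates 3 and 4 of 0.996, while pairs across these had 0.969 to 0.973. Of the 676 LPS-induced genes, 148 were at least 1 log2 unit higher in replicates 1 and 2, and 70 at least 1 unit higher in replicates 3 and 4. All 31 LPS-induced interferon response genes were higher in replicates 1 and 2, 9 of them by at least 1 log2 unit, against 443 of all 676 LPS-induced genes. The median for replicates 3 and 4 minus replicates 1 and 2 was -0.75 log2 units for the interferon response genes and -0.38 for all 676. Slfn4, of the Schlafen family, had 73.5 and 63.8 CPM in tolerant replicates 1 and 2 and 11.9 and 9.44 CPM in 3 and 4, against 333 and 292 CPM after LPS and 4.49 and 8.19 CPM in untreated cells. Fpr1 and Fpr2 went the other way, as their values above show. Summed stromal fibroblast markers were 384 and 418 CPM in tolerant replicates 1 and 2, 2091 and 2074 CPM in replicates 3 and 4, 95.3 and 85.9 CPM after LPS and 134 and 136 CPM in untreated cells. All 8 of these markers were detected in every library, led by Col1a1, Col1a2 and Acta2, and their part in the difference was not tested. The 3 summed endothelial markers, mostly Kdr, were 33.1 and 30.5 CPM in tolerant replicates 1 and 2, 6.27 and 7.53 CPM in replicates 3 and 4, 24.7 and 20.2 CPM after LPS and 34.2 and 30.4 CPM in untreated cells. Their part was not tested either.

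With replicates 1 and 2 alone 382 of the 676 genes were lower than after LPS, and with replicates 3 and 4 alone 436. The number at least 2 log2 units above untreated cells was 116 with replicates 1 and 2 alone and 71 with replicates 3 and 4 alone, against 79 with all 4.

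**Figure D5:**
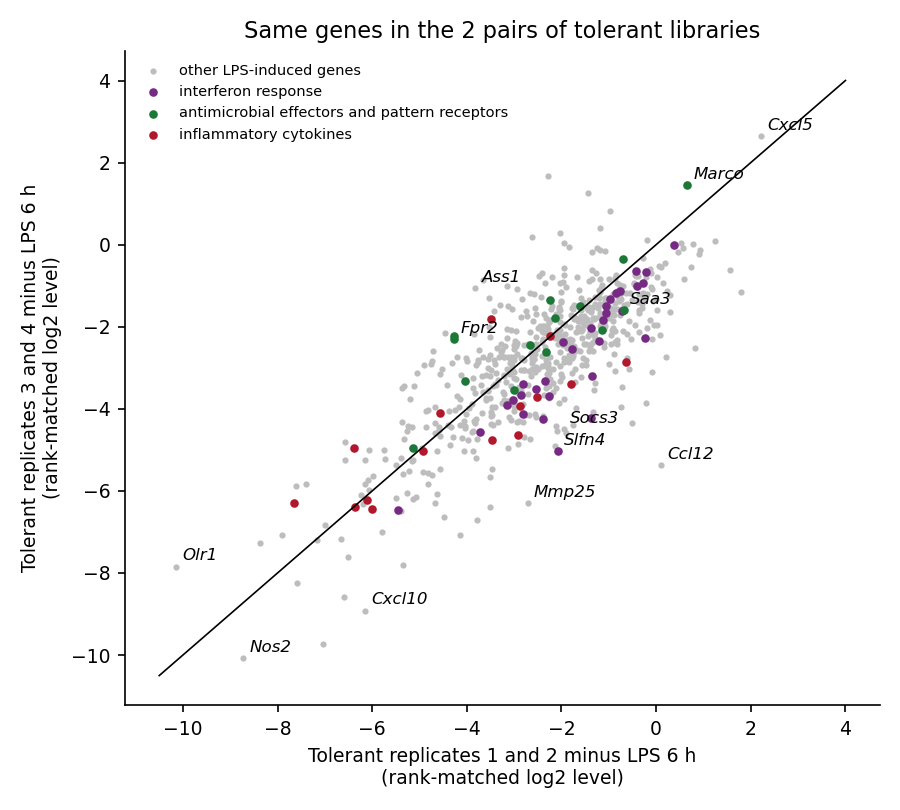
Rank-matched difference from LPS 6 h, in log2 units, of tolerant replicates 1 and 2 (x axis) and tolerant replicates 3 and 4 (y axis) for the 676 LPS-induced genes, with 3 lists coloured and the line of equality. Interferon response genes lie below the line, as all 31 were higher in replicates 1 and 2; Ccl12 and Mmp25 are far below it and Ass1 above it.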

How the data were processed

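Total RNA of mouse bone marrow-derived macrophages was made into stranded TruSeq libraries, per the labels' protocols. The authors deposited raw counts per gene, made with STAR and HTSeq on the mm10 genome, per the submitters' processing notes. Tool versions and the strand setting were not given in the sources used here, so overlapping genes are less certain. In GENCODE vM21 (GRCm38), 9 of the 71 named genes looked up share a strand with a gene that overlaps them, and 17 have such a gene on the opposite strand.

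The LPS fit used edgeR 4.0.16 (R 4.3.3) on the 6 libraries of the stimulation table with untreated, IL-4 and LPS groups, TMM scaling, filterByExpr and the quasi-likelihood F test, with 3 residual degrees of freedom. Its log2 fold changes carry standard errors. Rank-matched levels were computed over 12872 of 23052 genes passing filterByExpr in the 8 libraries, from log2 CPM with a prior count of 2. The smallest library had 32.4 M counts, which limits the precision of genes with few counts. Replicates were not copies of each other (chi-square of 10.2 to 174 per degree of freedom).

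The 12 gene lists, the 8 marker lists and the compared groups were chosen with earlier results of these data known. Named genes, 70 in all, were the 10 most negative lower genes and the 10 most induced genes in neither class (mean log2 CPM after LPS of at least 2), the 4 most induced members of each list and a fixed set of common genes; 67 were LPS-induced. Alternatives were RLE size factors, other filters and thresholds, DESeq2 1.42.0, each library left out, TMM or RLE levels in place of ranks, a replicate block and 1 edgeR fit of the 8 libraries. The steps were tested on simulated data. Python 3.11.15 and matplotlib 3.10.9 drew the figures. Promoter sequences came from RefSeq.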

Additional observations from a re-analysis of the deposited data

Results flagged for a closer look

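Rank-matched levels of the 70 named genes were searched for a tolerant library far from the other 3 (Dixon's test at its 95% critical value), which chance alone flags in about 1 of 20 groups, and 3 were found. Nfkbia stood at 5.85 log2 units in replicate 1, below the other 3 tolerant libraries, and Cebpd at 4.21 in replicate 4, also below them. Csf3 stood at -3.24 in replicate 1, above the others, on 2 counts.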

How the results depend on the processing

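The count of lower genes was 404, and 334 to 501 under every alternative of fit, filter, scale, LPS threshold of 1 log2 unit and libraries used, except that requiring at least 3 log2 units of LPS induction gave 270 and that asking for a difference of 3 log2 units gave 229 (1 unit gave 582). LPS-induced genes numbered 1418 at a threshold of 1 log2 unit and 347 at 3. Genes at least 2 log2 units above untreated cells numbered 79, and 212 with a threshold of 1 unit and 23 with 3. The 1 gene classed as higher became 0 with a filter of 1 CPM, with 3 log2 units of induction or difference, when chosen with replicate 1 of LPS and CTRL, and without LPS replicate 2, and became 2 with 1 log2 unit of induction or difference. Leaving out each library in turn gave 648 to 760 LPS-induced genes, 372 to 426 lower genes, 0 to 1 higher genes and 70 to 107 genes above untreated cells. For a left-out LPS or untreated library the lone remaining one is assumed to vary like the other groups. A replicate block in the LPS fit gave 676 LPS-induced genes and 404 lower ones and changed no count beyond that. The numbers were not taken as pairs, since deviations of the same number did not correlate in the same direction between all groups of the stimulation table. The correlation was 0.50 between untreated and LPS groups, the ones compared here. It was -0.66 between untreated and IL-4 groups and -0.37 between IL-4 and LPS groups. These values do not settle whether the untreated and LPS libraries were paired. TMM levels gave 432 lower genes, RLE levels 450, and 14 of the 676 genes differed in sign from the rank-matched value. Differences of the named genes were recomputed under 12 settings, giving 840 values: 778 moved by less than the spread between replicates and 62 by more (40 away from 0). Changes of sign were counted only for genes classed as lower, and there were 0. Ccl12, in neither class, went from -2.64 to 0.10 with tolerant replicates 1 and 2 alone. Depth limits Il33, Il19, Csf3, Il12b and Ifnb1, which had few counts in tolerant cells.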
